A study of Mus musculus with 9 samples.

Results

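Transcripts of 8 genes that mark the 2-cell embryo were followed through 3 states of mouse E14 embryonic stem cells. They are 5 copies of Zscan4 (Zscan4b, Zscan4c, Zscan4d, Zscan4e and Zscan4f), the paired genes Tcstv1 and Tcstv3, and Zfp352. They were picked by name, with earlier results of these data known. Each of the 8 has its own row among the 38293 genes of the count table. The groups were naive cells kept in N2B27 medium with the MEK inhibitor PD0325901 (1 µM), the GSK3 inhibitor CHIR99021 (3 µM) and mLIF (10 ng/mL), called mESC-2i, serum and LIF cultures on gelatin, called mESC-ser and labelled as primed, and epiblast-like cells (EpiLC). The EpiLC were derived from the naive cells on fibronectin with activin A (20 ng/mL), bFGF (12 ng/mL) and 1% KSR, a serum replacement. Each group had 3 libraries labelled as biological replicates, all of the E14 line of 129/Ola origin, so each state was sampled in 1 genetic background and p-values measure the spread between cultures of that line.

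Zscan4 encodes a nuclear protein with a SCAN domain and zinc fingers. In the mouse it is transcribed in a burst when the embryonic genome is first switched on, and it takes part in telomere maintenance and genome stability of embryonic stem cells. In stem cell cultures it appears in a small, changing fraction of cells, the 2-cell-like cells, together with Tcstv1 and Tcstv3, genes of a multicopy family that is also linked to telomere length, and with Zfp352, a zinc finger gene of the same embryonic stage. The transcription factor Dux, whose row in the table is Duxf3, lies upstream of this programme, the DNA-binding proteins Dppa2 and Dppa4 lie upstream of Dux, and several chromatin silencers hold the programme down.

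The Zscan4 genes lie together on mouse chromosome 7. In the GRCm38 annotation used for names here, 9 Zscan4 genes stand in a stretch of 819.871 kb (chr7:10794242-11614112) that holds 53 annotated genes. The measured copies were Zscan4b (chr7:10900740-10905050, minus strand), Zscan4c (chr7:11005745-11010547, plus strand), Zscan4d (chr7:11161374-11166159, minus strand), Zscan4e (chr7:11306378-11310682, minus strand) and Zscan4f (chr7:11397915-11402318, plus strand). All 5 are annotated as protein coding. Zscan4a, Zscan4-ps1, Zscan4-ps2 and Zscan4-ps3 were not analysed here. Tcstv1 (chr13:119893388-119894785, minus strand) and Tcstv3 (chr13:120316878-120318178, plus strand) lie on chromosome 13, and Zfp352 (chr4:90218820-90225702, plus strand) on chromosome 4. No annotated gene overlaps any of these 8 loci.

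**Figure D1:**
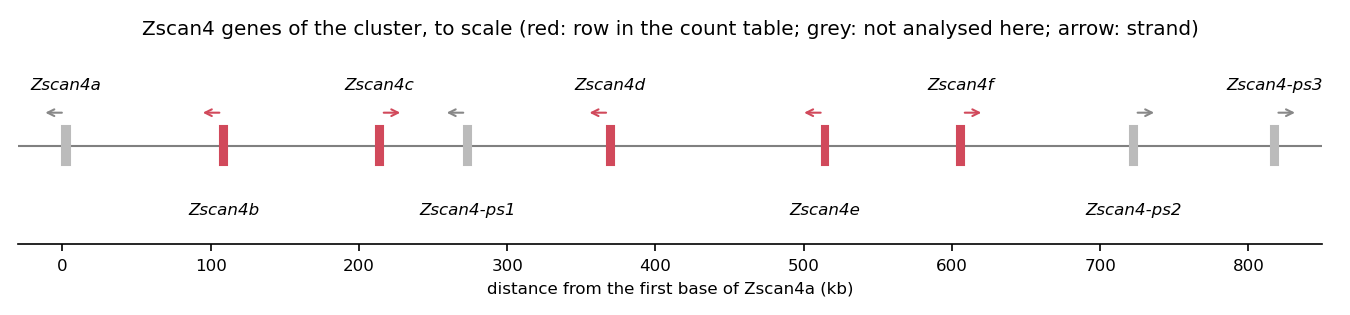
Map of the 9 annotated Zscan4 genes, to scale, against distance in kb from the first base of Zscan4a; red marks the 5 copies with a row in the count table, grey the 4 not analysed here, and arrows show the strand. The copies are spread over 819.871 kb and point in both directions.

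How far the copies can be told apart decides what each row can mean, so stretches of their coding sequence are shown. The 5 Zscan4 coding sequences differ at 65 positions, and coding bases 625 to 724, where 11 of these fall, are printed below in lower case, with capitals at each base that differs from Zscan4c.
Zscan4b: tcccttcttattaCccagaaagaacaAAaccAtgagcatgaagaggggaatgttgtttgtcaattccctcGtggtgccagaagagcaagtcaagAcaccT
Zscan4e: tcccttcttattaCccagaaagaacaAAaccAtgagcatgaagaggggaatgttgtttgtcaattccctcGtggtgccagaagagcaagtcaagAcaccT
Zscan4c: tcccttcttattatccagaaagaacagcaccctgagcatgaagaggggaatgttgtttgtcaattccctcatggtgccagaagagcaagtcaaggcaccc
Zscan4f: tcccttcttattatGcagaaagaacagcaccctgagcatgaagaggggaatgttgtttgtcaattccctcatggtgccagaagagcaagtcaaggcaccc
Zscan4d: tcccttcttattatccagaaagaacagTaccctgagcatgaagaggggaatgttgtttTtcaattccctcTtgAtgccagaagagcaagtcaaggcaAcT

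Zscan4b and Zscan4e are the same over these 100 bases, and over the whole coding sequence they are 99.74% identical, with 4 mismatches. Zscan4c and Zscan4f form the other close pair, 99.60% identical with 6 mismatches. Zscan4d stands apart from the rest, between 96.63% and 97.69% identical to the other copies. Tcstv1 and Tcstv3 are less alike, 94.67% identical, and their coding bases 354 to 453 show 12 of their 27 differences, in capitals in Tcstv1.

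Tcstv1: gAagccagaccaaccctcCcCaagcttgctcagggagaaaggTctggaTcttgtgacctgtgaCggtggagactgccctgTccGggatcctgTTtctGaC
Tcstv3: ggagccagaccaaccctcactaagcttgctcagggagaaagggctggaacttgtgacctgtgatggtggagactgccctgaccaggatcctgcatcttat

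Reads were 50 bases long. Of all 50-base runs in its transcripts, the share that also occurs in another annotated transcript was 90.1% for Zscan4b, 89.0% for Zscan4e, 86.8% for Zscan4f and 85.5% for Zscan4c. It was 49.6% for Zscan4d, 31.4% for Tcstv3, 15.0% for Tcstv1 and 7.10% for Zfp352. Zscan4b shares most with Zscan4e (85.4% of its runs), and Zscan4c and Zscan4f share most with Zscan4-ps2 (71.4% and 77.1%). Zscan4d and Zfp352 can therefore be read most nearly alone within their families, while counts of single Zscan4 copies are uncertain, because how reads with several matches were counted is not given in the sources used here. The summed counts of the 5 copies are given beside them for this reason. The sum does not settle reads that also match Zscan4-ps2 or other transcripts outside the 5 copies, nor reads left uncounted because they had several matches.

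The copies are alike upstream as well. Promoter windows of 300 bases from RefSeq (GRCm38.p6) were found for 5 of the 8 genes. The 150 bases around the TATA box of the 4 Zscan4 copies with such a window are shown because these copies move together below. Capitals mark TATAAA and every base that differs from Zscan4c, and the stretches are Zscan4b chr7:10905052-10905201 (minus strand), Zscan4c chr7:11005571-11005720 (plus strand), Zscan4d chr7:11166184-11166333 (minus strand) and Zscan4f chr7:11397764-11397913 (plus strand).
Zscan4b: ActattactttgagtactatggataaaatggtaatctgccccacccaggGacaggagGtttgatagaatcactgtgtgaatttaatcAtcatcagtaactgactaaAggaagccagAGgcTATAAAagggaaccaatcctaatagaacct
Zscan4c: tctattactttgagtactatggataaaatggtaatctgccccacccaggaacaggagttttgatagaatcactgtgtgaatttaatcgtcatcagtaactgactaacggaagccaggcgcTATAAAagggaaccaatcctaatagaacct
Zscan4d: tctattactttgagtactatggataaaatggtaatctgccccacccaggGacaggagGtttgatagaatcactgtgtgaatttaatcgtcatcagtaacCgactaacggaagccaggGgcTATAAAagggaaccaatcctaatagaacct
Zscan4f: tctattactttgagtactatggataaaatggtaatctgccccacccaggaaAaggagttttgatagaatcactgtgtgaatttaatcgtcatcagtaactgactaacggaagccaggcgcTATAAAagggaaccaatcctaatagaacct

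Against Zscan4c, 1 base differs in Zscan4f, 4 differ in Zscan4d and 7 in Zscan4b. The letters TATAAA, searched on both strands, occur in these 4 windows and in 13.6% of 32851 RefSeq windows of the same length. The E-box letters CACGTG (7.15% of windows) and the paired half-sites GATTNAATC (0.268% of windows), searched in the same way, occur in none of the 5 windows of these genes.

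Libraries held between 7187576 and 16829549 counted reads, and the third mESC-ser library was the deepest. Pou5f1, a core pluripotency factor, was present in every library at a group mean between 789.7 and 1006.7 CPM. CPM are read counts relative to library size after scaling by the trimmed mean of M-values (TMM). Sox2 and Nanog, listed with Pou5f1 as pluripotency markers, did not stay level. Sox2 averaged 467.8 CPM across mESC-2i libraries and 509.1 CPM across mESC-ser libraries, but 61.8 CPM across EpiLC libraries. Nanog averaged 649.7, 286.7 and 61.3 CPM, with the groups taken in that order. Summed over Esrrb, Zfp42, Klf4 and Tbx3, naive-state markers reached between 1537.2 and 1570.3 CPM in mESC-2i and between 1044.4 and 1101.9 CPM in mESC-ser, despite the primed label, but between 27.1 and 31.7 CPM in EpiLC. The epiblast-like markers Fgf5, Otx2, Pou3f1 and Dnmt3b summed to between 71.8 and 80.3, between 609.1 and 710.6 and between 1620.4 and 1709.4 CPM in the same order of groups.

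Zscan4 was close to silent in mESC-2i, abundant in mESC-ser and intermediate in EpiLC. Over the 5 copies together, the mESC-2i libraries held 6, 12 and 16 reads, the mESC-ser libraries 2179, 1851 and 1891 reads, and the EpiLC libraries 110, 97 and 114 reads. Scaled to library size, this came to 0.737, 1.00 and 1.25 CPM, to 152.5, 157.1 and 108.6 CPM, and to 14.8, 10.5 and 14.3 CPM. No library of one group reached into the range of another. In a bulk library a larger fraction of Zscan4-positive cells and more Zscan4 RNA in each such cell cannot be told apart.

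Against mESC-2i, the summed Zscan4 level was higher in mESC-ser by a log2 fold change of 7.02 (SE 0.23, adjusted p = 1.39e-08, edgeR quasi-likelihood test, 3 libraries a group). It was higher in EpiLC than in mESC-2i by 3.65 on the log2 scale (SE 0.24, adjusted p = 2.51e-07). Between EpiLC and mESC-ser the log2 fold change was -3.32 (SE 0.15, adjusted p = 4.48e-12). As ratios of pooled reads, mESC-ser held 132.0-fold the mESC-2i level, with a 95% interval from 94.4 to 190.8, and EpiLC held 12.6-fold that level, from 8.86 to 18.6. These intervals are exact binomial ones and cover counting error only, and the lower end of the scale rests on 34 reads from the 3 mESC-2i libraries.

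**Figure D2:**
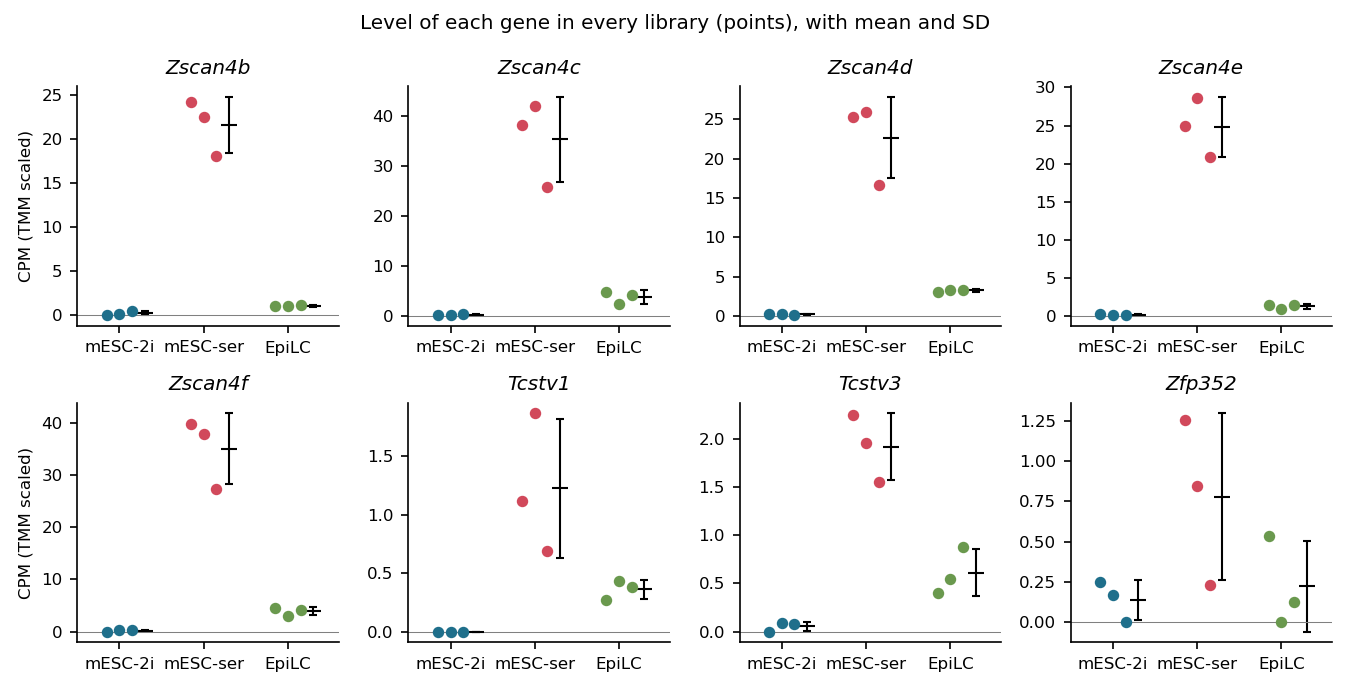
Level of each of the 8 genes in CPM (TMM scaled, linear axis, a separate scale per panel) in mESC-2i, mESC-ser and EpiLC; points are the 3 libraries of a group, and the black mark and bar give their mean and SD. Every Zscan4 copy and both Tcstv genes are ordered mESC-2i, EpiLC, mESC-ser with no overlap, whereas the Zfp352 points of the groups overlap.

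Each single copy showed the same order. Zscan4c was counted 2, 2 and 4 times in mESC-2i, 545, 495 and 449 times in mESC-ser and 36, 21 and 33 times in EpiLC. Zscan4f, its near-twin, was counted 0, 3 and 3 times, 569, 447 and 474 times, and 33, 28 and 33 times. For both, the lowest mESC-ser library (25.8 CPM for Zscan4c and 27.2 CPM for Zscan4f) lay above the highest EpiLC library (4.83 and 4.43 CPM).

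Zscan4d, the copy with the most sequence of its own, gave 2, 4 and 2 reads in mESC-2i, 362, 306 and 291 in mESC-ser, against 23, 31 and 27 in EpiLC. Its mean was 0.245 ± 0.089 CPM, 22.7 ± 5.2 CPM and 3.28 ± 0.17 CPM (SD, n = 3). The order of the states is therefore present in the row that shares least with its family.

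Zscan4b gave 0, 1 and 5 reads in mESC-2i, 346, 265 and 314 in mESC-ser, against 7, 9 and 9 in EpiLC. Zscan4e gave 2, 2 and 2 reads, 357, 338 and 363 reads, and 11, 8 and 12 reads. This pair had the lowest EpiLC levels of the 5 copies, 1.02 ± 0.10 CPM and 1.28 ± 0.36 CPM (SD, n = 3).

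In edgeR's fit of mESC-ser against mESC-2i, the log2 fold changes were 7.46 (SE 0.35) for Zscan4f, 7.07 (SE 0.33) for Zscan4c, 6.96 (SE 0.28) for Zscan4e, 6.76 (SE 0.38) for Zscan4b and 6.43 (SE 0.33) for Zscan4d. All 5 passed the threshold of an adjusted p under 0.05 with an absolute log2 fold change over 0.5, with adjusted p between 3.34e-08 and 2.07e-07. They ranked 9, 14, 17, 22 and 25 from the top among 15728 genes by fitted fold change. Without mESC-2i replicate 3, which held 5 of the 6 Zscan4b reads of that group, the Zscan4b value was 8.45 and the highest of the 5, so the place of Zscan4b in this order rests on that library.

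Tcstv1 and Tcstv3 followed Zscan4 at a far lower level. Tcstv3 was counted 0, 1 and 1 times in mESC-2i, 32, 23 and 27 times in mESC-ser and 3, 5 and 7 times in EpiLC. Its log2 fold change in mESC-ser against mESC-2i was 4.71 (SE 0.52, adjusted p = 2.31e-05, edgeR), and the ratio of pooled reads was 31.1 with a 95% counting interval from 8.33 to 260.9. Tcstv1 had no read in any mESC-2i library, 16, 22 and 12 reads in mESC-ser and 2, 4 and 3 reads in EpiLC. With a floor of 3 reads over the mESC-2i group, the mESC-ser level was at least 12.6-fold higher and the EpiLC level at least 4.02-fold higher. The 3 groups did not overlap for either gene.

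Summed over Tcstv1 and Tcstv3, the libraries held 0, 1 and 1 reads in mESC-2i, 48, 45 and 39 in mESC-ser, against 5, 9 and 10 in EpiLC. The sum was higher in mESC-ser than in mESC-2i by 5.41 on the log2 scale (SE 0.53, adjusted p = 1.04e-05, edgeR), and its log2 fold change in EpiLC against mESC-ser was -1.56 (SE 0.32, adjusted p = 0.000277), or -2.19 with offsets for gene length and GC content. Pooled reads put mESC-ser at 3.11-fold the EpiLC level for the Tcstv sum (95% counting interval from 2.01 to 5.03) and at 10.4-fold for the Zscan4 sum (from 9.33 to 11.7). These counting intervals do not overlap, but they leave out the spread between cultures, and the Tcstv value for EpiLC rests on 24 reads. The contrast between the sums was picked out after the values were seen and was not tested between libraries.

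Zfp352 was barely detected. It gave 2, 2 and 0 reads in mESC-2i, 18, 10 and 4 in mESC-ser, against 4, 0 and 1 in EpiLC, and the lowest mESC-ser library (0.230 CPM) lay below the highest mESC-2i library (0.246 CPM) and the highest EpiLC library (0.537 CPM). It did not pass the filter on low counts in any comparison. The ratio of pooled reads was 6.06 in mESC-ser against mESC-2i (95% counting interval from 2.15 to 23.6) and 1.67 in EpiLC against mESC-2i (from 0.360 to 8.43). A difference between EpiLC and mESC-2i was not detectable for Zfp352 at this depth.

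**Figure D3:**
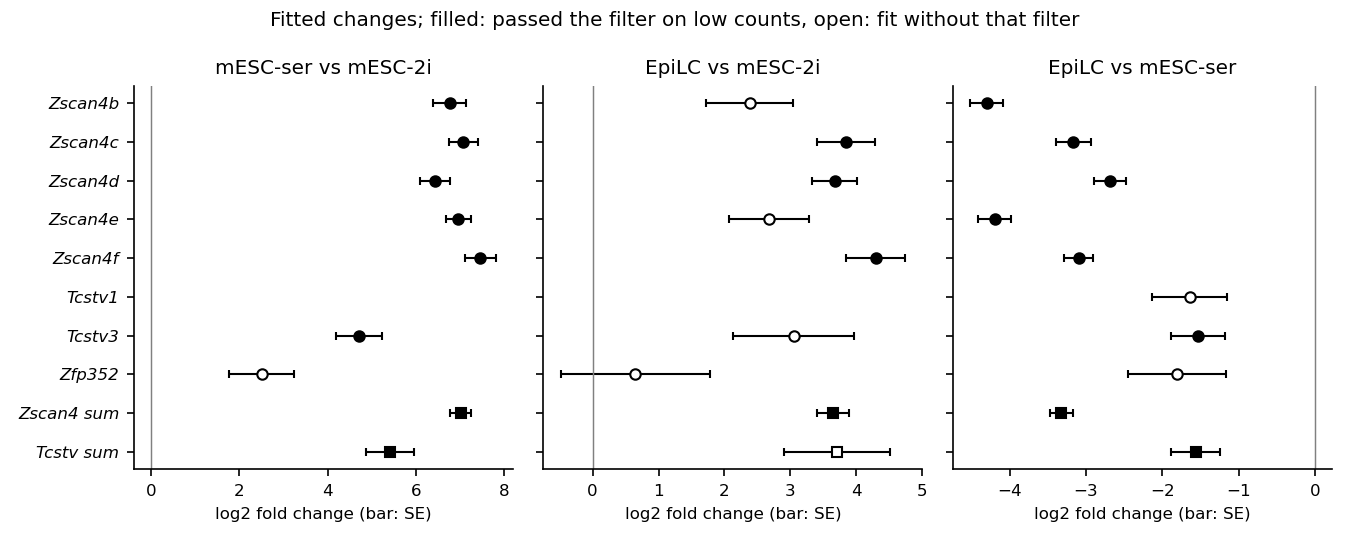
Fitted log2 fold changes (edgeR, bars are SE) of the 8 genes and of the Zscan4 and Tcstv sums (squares) in the 3 comparisons; filled symbols passed the filter on low counts and open symbols come from the fit without it, and Tcstv1 is left out against mESC-2i, where it had no read. The Zscan4 copies lie between 6.43 and 7.46 in mESC-ser against mESC-2i, while Zscan4b and Zscan4e lie lowest in EpiLC against mESC-ser, at -4.30 and -4.19.

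Counted over the 8 genes, 6 passed the filter on low counts in mESC-ser against mESC-2i and were called higher, with Tcstv1 and Zfp352 not tested. The share of all tested genes called higher in that comparison was 25.9%, and the share called lower was 30.3%. Of the 8 genes, Zscan4c, Zscan4d and Zscan4f passed the filter in EpiLC against mESC-2i and were called higher, against 32% of all tested genes called higher and 37.8% called lower. In EpiLC against mESC-ser the same 6 genes as in the first comparison were tested and called lower, against 37.8% of all tested genes called lower and 35.5% called higher. Of all calls, 45.9% were higher in EpiLC against mESC-2i (33.7% under scaling by total counts), while 48.4% were higher between EpiLC and mESC-ser (37.4%). Because mESC-2i levels are near 0, these genes passed the filter through the other group, and a count over them is a description only. When genes with at least 1 read were kept, all 8 were fitted. Then 8 were called higher in mESC-ser against mESC-2i (20.1% of all genes fitted), 7 in EpiLC against mESC-2i, with Zfp352 as the exception (23.6%), and 8 were called lower in EpiLC against mESC-ser (29.1%).

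Per kilobase of exon, the order of the copies in mESC-ser was Zscan4f (17.9 ± 3.5 RPKM, the CPM divided by exonic kilobases), Zscan4c (15.5 ± 3.7), Zscan4e (13.9 ± 2.2), Zscan4b (12.0 ± 1.8) and Zscan4d (9.98 ± 2.28, SD, n = 3). These SDs measure a spread between libraries that the copies share, so they do not test the order of the copies. Tcstv3 (2.46 ± 0.44), Tcstv1 (0.876 ± 0.426) and Zfp352 (0.342 ± 0.228) followed well below. In EpiLC the order was Zscan4f (1.98 ± 0.38 RPKM), Zscan4c (1.65 ± 0.58), Zscan4d (1.44 ± 0.07), Tcstv3 (0.781 ± 0.315), Zscan4e (0.716 ± 0.201) and Zscan4b (0.564 ± 0.056), followed by Tcstv1 (0.257 ± 0.060) and Zfp352 (0.0970 ± 0.1234). Zscan4d thus moved from the last place among the copies to the third, ahead of Zscan4e and Zscan4b.

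The same shift appears in the makeup of the Zscan4 reads. Zscan4b and Zscan4e together took 32.3%, 32.6% and 35.8% of the summed Zscan4 reads in the 3 mESC-ser libraries, but 16.4%, 17.5% and 18.4% in the 3 EpiLC libraries. Zscan4d took 16.2% ± 0.7 in mESC-ser and 25.5% ± 5.7 in EpiLC, and Zscan4f 25.1% ± 1.0 and 29.3% ± 0.6 (SD, n = 3). For these the groups did not overlap, while Zscan4c took 25.2% ± 1.5 and 27.8% ± 5.6, with overlap. An exact two-sided permutation test gave p = 0.10 for the Zscan4b and Zscan4e pair, and 0.14 after Benjamini-Hochberg adjustment over 7 shares. The value of 0.10 is the smallest p that 3 against 3 libraries allow. That test could therefore not reach a threshold of 0.05 whatever the shares, and it does not decide whether the shift is real.

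On the log2 scale the pair Zscan4b and Zscan4e changed by -4.25 (SE 0.17, adjusted p = 1.09e-12, edgeR) in EpiLC against mESC-ser, and the pair Zscan4c and Zscan4f by -3.13 (SE 0.19, adjusted p = 9.86e-11). Pooled reads put mESC-ser at 20.1-fold the EpiLC level for the first pair (95% counting interval from 15.4 to 26.6) and at 9.17-fold for the second (from 7.90 to 10.7), and these intervals do not overlap. Against mESC-2i, EpiLC stood at 6.25-fold for the first pair (from 3.31 to 12.8) and at 17.6-fold for the second (from 10.2 to 32.8), and these intervals overlap. In mESC-2i the first pair made up 35.3% of 34 reads (95% Wilson interval from 21.5 to 52.1). The pairs were formed by sequence likeness, but the contrast between them was taken up after their values were seen. The gene models of Zscan4b and Zscan4e are shorter, with 1802 and 1793 exonic bases against between 1959 and 2276 for the other copies, and the part of read assignment in this shift was not tested.

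**Figure D4:**
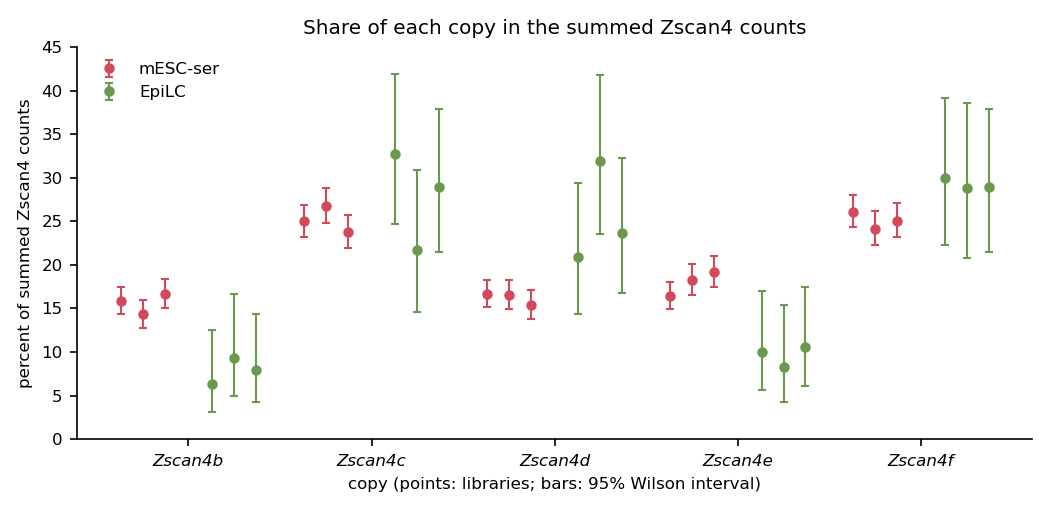
Share of each Zscan4 copy in the summed Zscan4 reads, in percent, in the 3 mESC-ser (red) and 3 EpiLC (green) libraries; bars are 95% Wilson intervals for counting error. Zscan4b and Zscan4e together fall from between 32.3% and 35.8% to between 16.4% and 18.4%, while Zscan4d and Zscan4f lie higher in EpiLC.

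Within mESC-ser the third library had the lowest CPM of the sum and of each of the 8 genes. It held 108.6 CPM of summed Zscan4 against 152.5 and 157.1 CPM in the other libraries, and 2.24 CPM of summed Tcstv against 3.36 and 3.82 CPM. Zfp352 stood at 0.230 CPM there, against 1.26 and 0.848 CPM. Without this library the summed Zscan4 log2 fold change against mESC-2i was 7.18, so the difference from mESC-2i did not rest on it.

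Summed over other listed genes, the wider 2-cell programme moved in the same order. The list was chosen with earlier results of these data known, so its values are a description only. Of 38 other genes listed for the 2-cell stage or 2-cell-like cells, 34 had a row in the table. Their summed level was 9.21, 7.34 and 7.41 CPM for mESC-2i, 114.9, 118.8 and 81.8 CPM for mESC-ser and 20.8, 24.4 and 23.6 CPM for EpiLC, with no overlap between groups and with the third mESC-ser library again the lowest of its group. In mESC-ser against mESC-2i, 20 of the 34 passed the filter and 20 were called higher, against 25.9% of all tested genes. Their median log2 fold change was 4.16, against -0.04 over all tested genes. It stayed at 4.16 with the 1 gene at 0 in mESC-2i placed at its bound. Without the filter 28 were called higher (20.1% of all genes fitted), 5 were not called and 1 had no read. These genes, too, were mostly let through the filter by mESC-ser.

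Duxf3, the Dux row, was counted 0, 0 and 1 times in mESC-2i, 9, 3 and 8 times in mESC-ser and 0, 0 and 1 times in EpiLC. The ratio of pooled reads was 15.2 in mESC-ser against mESC-2i (95% counting interval from 2.42 to 628.3). In EpiLC against mESC-2i it was 1.34 (from 0.017 to 105.1), so at this depth the Dux transcript could not be told apart between these groups, although the summed Zscan4 level differed.

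Largest among the fitted changes of this list in mESC-ser against mESC-2i were those of Gm13119, Gm6763, Usp17ld and Usp17le, the last 2 encoding deubiquitinase-like proteins of the Usp17l family. Gm13119, with no read in mESC-2i, stood at least 19.2-fold higher among the mESC-ser libraries, counting from a floor of 3 reads over the mESC-2i group. Its place among the largest therefore rests on a fit to a group without reads, and the bound does not establish it. Gm6763 had 1, 2 and 1 reads in mESC-2i, 127, 84 and 112 in mESC-ser, against 7, 15 and 10 in EpiLC, and changed by 5.78 on the log2 scale (SE 0.35, adjusted p = 3.92e-07, edgeR) between the first 2 groups. Usp17le had 0, 2 and 2 reads, 70, 62 and 79 reads, and 0, 3 and 1 reads, a log2 fold change of 5.17 (SE 0.39, adjusted p = 1.64e-06).

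The list did not keep together in EpiLC. In EpiLC against mESC-ser 20 genes passed the filter, 16 of which were called lower, against 37.8% of all tested genes. The median log2 fold change of the 20 was -2.85, against -0.07 over all tested genes. Usp17ld (-5.18, SE 0.64), Usp17lb (-4.85, SE 0.58), Usp17le (-4.73, SE 0.41) and Gm2016 (-3.65, SE 0.29) had the largest changes, with adjusted p between 5.11e-09 and 1.15e-06 (edgeR). Their EpiLC counts were within the range of mESC-2i or near it, for example 1, 0 and 1 reads of Usp17lb in EpiLC and 2, 1 and 3 in mESC-2i. The pooled ratio of EpiLC to mESC-2i for Usp17le was 1.34 (95% counting interval from 0.249 to 7.19).

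Of these 20, 4 were not called between EpiLC and mESC-ser, namely Gm8994, Gm20767, Sp110 and AF067061, the last 2 of which are named here after their values were seen. Under scaling by total counts Gm20767 (-0.84) and Sp110 (-0.86) were called lower as well, and without the filter on low counts Gm20767 was (-0.59, adjusted p = 0.046, edgeR), which leaves Gm8994 and AF067061 uncalled in each of these fits. Gm8994 had 18, 29 and 25 reads in mESC-2i, 91, 93 and 107 in mESC-ser, against 54, 80 and 55 in EpiLC, so that its CPM range in EpiLC (6.91 to 8.68) overlapped that in mESC-ser (6.14 to 7.89). Gm8994 and Gm20767 were also the only genes of this list to pass the filter in EpiLC against mESC-2i, and both were called higher, by 1.78 (SE 0.20, adjusted p = 1.31e-05, edgeR) and 3.47 (SE 0.49, adjusted p = 6.98e-05). Of all tested genes, 32% were called higher there. Without the filter 11 of the 34 were called higher in that comparison, against 23.6% of all genes fitted. Another 19 were not called and 4 had no read. Gm20767 and AF067061 share 50-base runs with Tcstv1 (4.01% and 3.58% of the runs of Tcstv1).

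**Figure D5:**
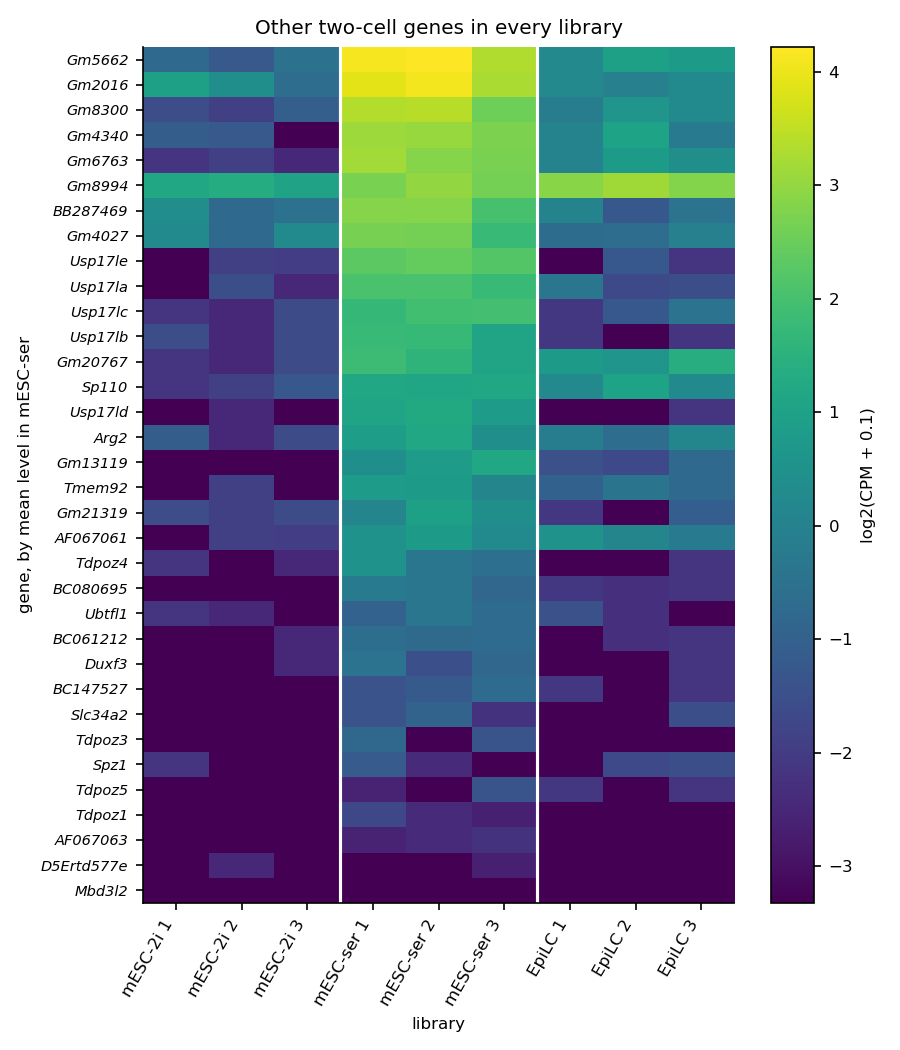
Levels of the 34 other measured 2-cell genes in the 9 libraries, as log2(CPM + 0.1) in colour, with genes in order of their mean in mESC-ser and white lines between groups. Most rows are brightest in mESC-ser, Gm8994 and Gm20767 are bright in EpiLC too, and the lowest rows are at or near 0 in every library.

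Among 6 genes listed as activators of the programme, 4 were called higher and 1 lower in mESC-ser against mESC-2i, where 25.9% of all tested genes were higher and 30.3% lower. Dppa2 rose from 27.6 ± 1.6 CPM to 131.0 ± 10.4 CPM (SD, n = 3), a log2 fold change of 2.19 (SE 0.11, adjusted p = 9.54e-08, edgeR). Dppa4, its partner in binding chromatin, rose from 37.3 ± 3.6 to 98.1 ± 6.3 CPM (log2 fold change 1.33, SE 0.11, adjusted p = 3.01e-06). Dppa3, a maternal factor that guards DNA methylation in the early embryo, rose by 1.28 (SE 0.17, adjusted p = 6.90e-05).

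In EpiLC, Dppa2 and Dppa4 were also above mESC-2i, at 97.7 ± 2.4 and 120.4 ± 7.7 CPM, with log2 fold changes of 1.80 (SE 0.09, adjusted p = 4.06e-08, edgeR) and 1.67 (SE 0.10, adjusted p = 1.74e-07). Neither was called between EpiLC and mESC-ser, with log2 fold changes of -0.34 and 0.38, though Dppa2 was called lower under scaling by total counts (-0.68). Tbx3, a T-box factor of the naive state that is also linked to Zscan4, went the other way from Zscan4 in mESC-ser, from 221.2 ± 18.4 to 113.0 ± 8.5 CPM, and stood at 1.39 ± 0.19 CPM in EpiLC. In EpiLC against mESC-2i 3 activators were called higher and 1 lower (32% and 37.8% of all tested genes), or 2 and 2 under scaling by total counts. In EpiLC against mESC-ser none was called higher and 2 were called lower, Tbx3 and Dppa3 (35.5% and 37.8% of all tested genes). Under scaling by total counts 3 were called lower.

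Silencers of the programme were mostly higher in mESC-ser. Of 15 listed, 10 were called higher and 1 lower in mESC-ser against mESC-2i (25.9% and 30.3% of all tested genes), with a median log2 fold change of 0.92 against -0.04 over all tested genes. The largest changes were those of Lin28a, an RNA-binding protein (1.90, SE 0.11), Rif1, a telomere and replication timing factor that represses Zscan4 (1.74, SE 0.16), Ncl, the nucleolar protein nucleolin (1.07, SE 0.11), and Trim28, the corepressor of KRAB zinc finger proteins (1.00, SE 0.10), with adjusted p between 2.79e-07 and 1.43e-05 (edgeR).

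In EpiLC against mESC-2i, 6 silencers were called higher and 5 lower, near the 32% and 37.8% of all tested genes. Rif1 stood at 214.4 ± 53.3 CPM in mESC-2i, 748.1 ± 23.5 CPM in mESC-ser but 65.3 ± 11.6 CPM in EpiLC (SD, n = 3). Its log2 fold change was -1.74 (SE 0.18, adjusted p = 7.49e-06) against mESC-2i in EpiLC, and -3.43 (SE 0.11, adjusted p = 1.06e-13, edgeR) in EpiLC against mESC-ser. Lin28a was higher in EpiLC than in mESC-2i by 1.75 (SE 0.10), whereas Setdb1, a histone H3K9 methyltransferase, and Dnmt1, the maintenance DNA methyltransferase, changed by -1.31 (SE 0.13) and -1.09 (SE 0.10), with adjusted p between 8.47e-08 and 3.88e-06. In EpiLC against mESC-ser, 2 silencers were called higher and 7 lower (35.5% and 37.8% of all tested genes), among them Smchd1 (-1.63, SE 0.11) and Dnmt1 (-1.57, SE 0.09), while Chaf1b, a subunit of the histone chaperone CAF-1, was higher by 1.62 (SE 0.08). Scaling by total counts turned the counts in EpiLC against mESC-2i to 2 higher and 6 lower and those between EpiLC and mESC-ser to 1 higher and 10 lower, and moved the median of all genes by -0.34 on the log2 scale in both.

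Markers of other cell types were present, and the sum of each list was highest in mESC-ser. In EpiLC the primitive endoderm and trophectoderm sums lay below those of mESC-2i, though the trophectoderm genes did not all move that way. The 6 fibroblast markers summed to between 33.8 and 38.9 CPM in mESC-2i, between 56.9 and 75.6 in mESC-ser and between 41.0 and 44.7 in EpiLC, of which Lum was at 0 in 6 of the 9 libraries. Its genes did not move together: Col1a1 was called higher in mESC-ser than in mESC-2i (1.09) with Col1a2 and Thy1 not called, and in EpiLC against mESC-2i Col1a1 (-3.88) and Col1a2 (-1.55) were called lower while Thy1 (3.25) and Dcn (4.08) were called higher. The 4 primitive endoderm markers summed to between 8.59 and 8.97, between 12.7 and 13.8 and between 1.26 and 2.5 CPM. They did not move together in mESC-ser against mESC-2i. Gata6 (2.26) and Pdgfra (0.67) were called higher and Gata4 (-0.50) lower, with Sox17 not tested. The 6 trophectoderm markers summed to between 120.5 and 141.1, between 233.3 and 255.3 and between 72.2 and 76.3 CPM, mostly the keratins Krt8 and Krt18 and Tfap2c, with Elf5 at 0 in 6 of the 9 libraries. In mESC-ser against mESC-2i, Krt8 (1.58), Krt18 (3.05) and Gata3 (1.95) were called higher, and Cdx2 (-2.70) and Tfap2c (-0.96) lower. In EpiLC against mESC-2i, Krt18 (2.36) was called higher, and Cdx2 (-5.72), Krt8 (-1.22), Tfap2c (-5.85) and Gata3 (-3.82) lower. The part of other cell types in the Zscan4 difference was not tested.

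Over the 9 libraries, the genes whose log2 CPM profile was most like that of summed Zscan4 were, leaving out genes with clone names, Neurod1, Spn, Mov10l1, Steap2, Ap3m1, Hells, Noct and Folr1, with Pearson's r between 0.992 and 0.996 among 16026 genes compared. The coefficient is a description, since the 9 points are 3 groups of 3 libraries and 18 genes exceeded 0.99. Spn, which encodes the surface sialoglycoprotein CD43, had the largest change of these, with 4, 9 and 11 reads in mESC-2i, 311, 229 and 365 in mESC-ser, against 35, 30 and 26 in EpiLC. Mov10l1, an RNA helicase of the germline piRNA pathway, had 10, 20 and 21 reads, 167, 148 and 213 reads, and 40, 41 and 43 reads. All 8 had smaller changes than summed Zscan4 in mESC-ser against mESC-2i, with log2 fold changes between 0.65 for Ap3m1 and 4.76 for Spn.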

How the data were processed

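RNA-seq of 9 libraries (50-base single-end reads, poly-A selected) was analysed. Per the labels and the study's methods, the authors trimmed reads with Trim Galore 0.6.6, aligned them to mm10 with HISAT2 2.2.1 and counted them per gene with featureCounts of Subread 2.0.1. The deposited values are raw counts. Annotation release, strand setting and treatment of reads with several matches are not given in the sources used here. Ensembl identifiers were matched to GENCODE M21 (36429 of 38293).

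Each pair of groups was fitted with edgeR 4.0.16 (TMM, filterByExpr, quasi-likelihood test, Benjamini-Hochberg over all genes tested). A gene was called at adjusted p under 0.05 and absolute log2 fold change over 0.5. For the sums, the members' rows were replaced by their sum. CPM and RPKM used TMM-scaled library sizes and annotated exonic lengths. The steps were tested on simulated data. No 2 libraries of a group differed by less than sampling noise.

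Groups share replicate numbers. Same-numbered mESC-2i and mESC-ser libraries deviated together (r = 0.127, 0.180 and 0.340), taken from the data only. So did mESC-ser 1 with mESC-2i 2 (r = 0.144) and mESC-ser 2 with mESC-2i 1 (r = 0.061). Only replicate 3 stood apart, so a pairing by number is not shown for replicates 1 and 2. Same-numbered EpiLC and mESC-2i libraries gave r = 0.022, 0.109 and 0.109, and same-numbered EpiLC and mESC-ser libraries r = 0.018, 0.017 and 0.034. Replicate-block fits, RLE and total-count scaling, other filters, DESeq2 1.42.0, joint fitting, length and GC offsets and leaving out each library were tried. Named list genes were those called with the 4 largest absolute changes per list and comparison with at least 20 counts in 1 library, plus Duxf3, and the 8 genes nearest in profile to summed Zscan4 among those with at least 10 counts in 3 libraries and a symbol that is no clone name. The members and lists were chosen with earlier results of these data known.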

Additional observations from a re-analysis of the deposited data

How the results depend on the processing

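The summed Zscan4 difference kept its direction and passed the threshold under every alternative that gave a value, from 6.89 to 7.22 on the log2 scale in mESC-ser against mESC-2i, from 3.31 to 3.84 for EpiLC against mESC-2i, with values from -3.66 to -3.17 for EpiLC against mESC-ser, the highest adjusted p being 4.81e-06. The replicate block gave 6.99, 3.64 and -3.31, and with replicate numbers modelled in this way no call changed. The number of the 8 genes called moved with the filter. Requiring at least 10 counts in every library left 0 for mESC-ser against mESC-2i and also 0 for EpiLC against mESC-2i, since mESC-2i counts stay below that, with 3 left in EpiLC against mESC-ser. In EpiLC against mESC-2i the 3 genes called became 7 without the filter, 7 with DESeq2 and 6 when all 9 libraries were fitted together, as more genes were then tested. Leaving out 1 library gave between 6 and 8 genes called in mESC-ser against mESC-2i, between 3 and 4 in EpiLC against mESC-2i, with between 6 and 8 in EpiLC against mESC-ser. Of the 34 other 2-cell genes, the 2 called in EpiLC against mESC-2i became 11 without the filter and between 2 and 6 when 1 library was left out: 6 without EpiLC replicate 1 or mESC-2i replicate 1, 4 without mESC-2i replicate 2 or 3. Scaling by total counts shifted the median of all genes by -0.34 in both comparisons of EpiLC. No summed Zscan4 value against mESC-2i could be had with at least 10 counts in every library. Depth limits mESC-2i most: 34 Zscan4 reads, 2 Tcstv reads and 4 Zfp352 reads in 3 libraries.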
